A study of Homo sapiens with 4 samples.

Results

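The genes described here are 8 that encode proteins reported to read or to erase 5-methylcytosine (m5C) in RNA. The readers are ALYREF, YBX1, YBX3 and FMR1, and the erasers are TET1, TET2, TET3 and ALKBH1. They form a list of symbols, in which no threshold on a measured value decides membership, and were matched on the gene symbol that the deposited peak annotation gives. Of the 8 genes, 7 carried at least 1 peak of RNA bound by NSUN2, out of 15017 genes with a peak in the whole data set. YBX1 was the gene without one.

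PANC-1, a widely used line of human pancreatic ductal adenocarcinoma cells, was treated for 24 h with 30 mM sodium lactate or with ddH2O, the vehicle. RNA immunoprecipitation sequencing (RIP-seq) sequences the RNA held by a protein, in this case NSUN2, after an antibody has captured it, and the input is a sample of the same lysate that did not go through the capture. Each condition had 1 IP library and 1 input library, so there were 4 libraries, no replicate and no test, and every interval given here covers counting error alone. Both conditions used wild-type cells, and a control-antibody library was not analysed here.

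NSUN2 is a methyltransferase that places m5C on tRNAs and on a part of the mRNAs. Readers bind the methylated base and act on the transcript, ALYREF in export from the nucleus and YBX1 in the stability of mRNA. TET proteins are dioxygenases that oxidise the methyl group, chiefly in DNA and also in RNA, and ALKBH1 is a dioxygenase that acts on tRNA. The values below concern the RNAs made from these genes as ligands of NSUN2, and measure neither the amount or activity of the proteins nor m5C.

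The authors' lists held 48104 peaks with lactate and 95785 with ddH2O, each called against the input of the same condition, so the ddH2O list was 1.99 times as long. For the comparison of the conditions, the authors merged both lists into 116484 regions and gave each a normalized read density for each IP library, which the study's methods credit to MAnorm, a method that scales 2 libraries on the peaks they share. Before this scaling, a density is the number of reads, with 1 added, per kb of a window of 2000 bases around the region. With the scaling undone, whole reads were computed back for 99.998% of the windows. Summed over all windows outside MT-RNR2 and MALAT1, the reads were 1945000 with lactate and 3536821 with ddH2O, a ratio of 1.82. The coverage of ductal keratins varied widely, from 2737 and 8085 reads at KRT18 to 16 and 37 at KRT7. A peak lay on 6 of 6 ductal markers, against 0 of 3 endothelial, 2 of 3 leukocyte and 2 of 4 fibroblast markers. The leukocyte marker CD68, with 30 and 62 reads, and the fibroblast marker COL1A1, with 47 and 50, had more reads than KRT7. The epithelial markers EPCAM and CDH1 were nearly empty, at 1 and 3 reads and at 0 and 4 reads.

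The 8 genes held 22 peaks with lactate, on 5 genes, and 55 with ddH2O, on 7 genes. The ratio of 2.5 stands beside 1.99 for the whole lists. TET1, TET2, TET3, ALKBH1 and FMR1 had peaks in both conditions, whereas ALYREF and YBX3 had peaks with ddH2O alone. The peaks were weak in general. The median fold over input, which is the ratio given by the peak caller, was 3.89 with lactate (range 2.21 to 10.5) and 3.30 with ddH2O (range 1.82 to 14.4), against 3.24 and 3.03 for all peaks on protein-coding genes. A q-value (a p-value adjusted over all candidate peaks by the caller) below 0.05 was given to 13 of 22 peaks (59.1%) with lactate and to 28 of 55 (50.9%) with ddH2O, beside 44.6% and 50.9% of all peaks on protein-coding genes. The shortest length in the lists, 200 bases, was that of 8 of the 22 and of 20 of the 55 peaks. The same fold, 3.64, was listed for 8 of the 55.

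**Figure D1:**
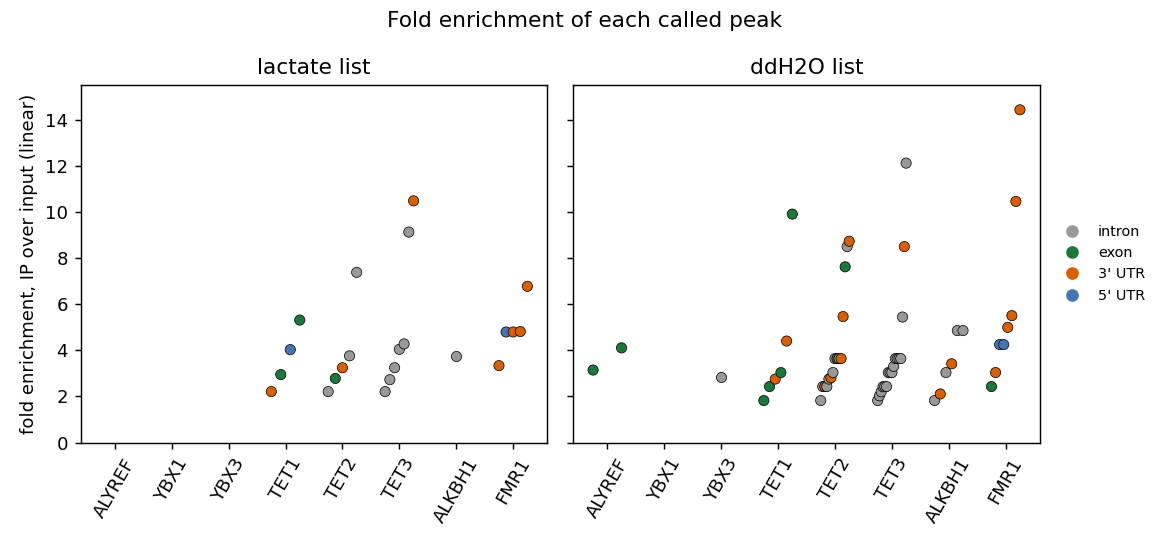
Fold enrichment of IP over input (linear axis from 0) for each peak called on the 8 genes, 1 point per peak in the colour of its annotated region, with the lactate list in the left panel and the ddH2O list in the right. Most points lie between 2 and 6, the highest is an FMR1 peak at 14.4 with ddH2O, and the columns of YBX1 are empty in both panels.

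**Figure D2:**
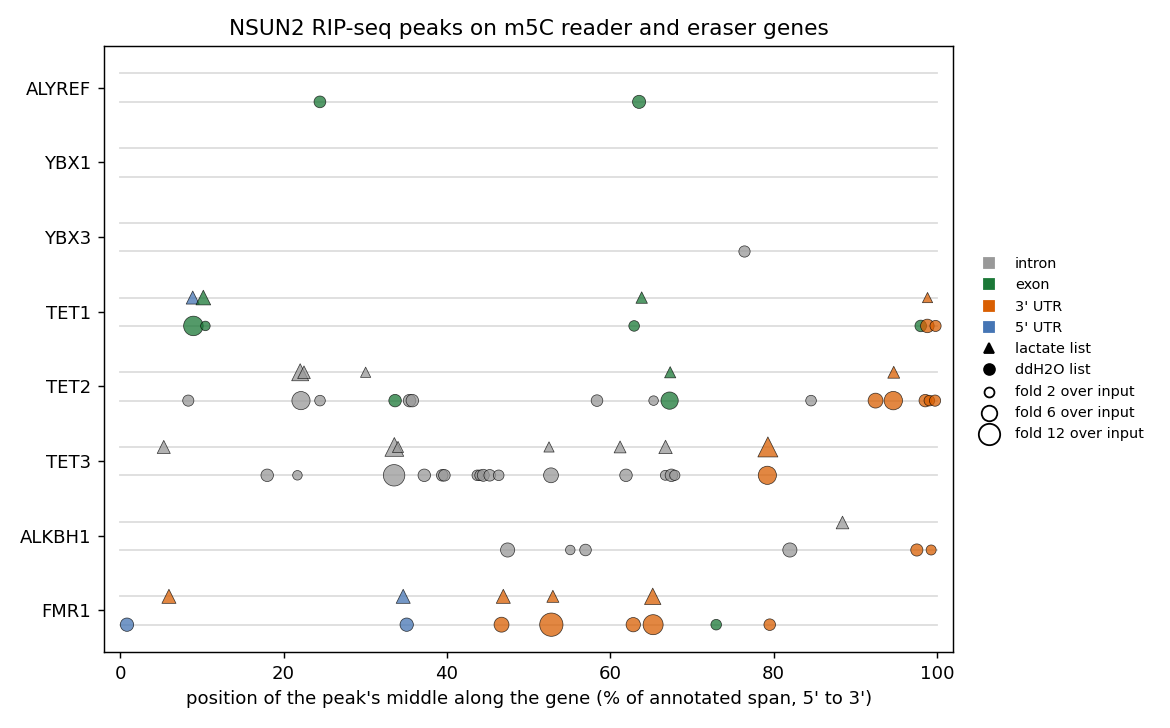
Middle of each called peak along its gene, from the start (0%) to the end (100%) of the annotated span, with triangles for the lactate list, circles for the ddH2O list, the annotated region in colour and the fold over input as size. The peaks of TET3 were spread over its introns, the FMR1 peaks with a 3′ UTR label lay inside the gene, ALYREF and YBX3 had circles alone, and the lines of YBX1 are empty.

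Counted over every called peak, introns held the most in both lists and 3′ untranslated regions came next, but this order did not hold among the stronger peaks. TET3 alone gave 6 of the 10 intronic peaks with lactate and 16 of the 29 with ddH2O. With lactate, 10 of 22 peaks (45.5%, exact binomial interval 24.4 to 67.8%) were intronic and 7 of 22 (31.8%, 13.9 to 54.9%) were in a 3′ UTR. With ddH2O, 29 of 55 (52.7%, 38.8 to 66.3%) were intronic and 15 of 55 (27.3%, 16.1 to 41.0%) were in a 3′ UTR. Among all peaks on protein-coding genes, the 3′ UTR share was 18.1% with lactate and 15.8% with ddH2O, and the intron share was 61.5% and 61.2%. The intervals count each peak as a separate draw, which peaks of the same gene are not. Where the q-value was below 0.05, the introns had 30.8% of the peaks and the 3′ UTRs 38.5% with lactate, and each held 39.3% with ddH2O. At a fold of at least 4, each held 36.4% with lactate, and introns held 27.8% and 3′ UTRs 44.4% with ddH2O. Without FMR1, the 3′ UTR share was 17.6% with lactate and 21.3% with ddH2O. Exons held 3 of 22 peaks (13.6%) with lactate and 9 of 55 (16.4%) with ddH2O, beside 18.8% and 21.0% of all peaks on protein-coding genes. The 5′ UTRs held 2 peaks in each list (9.09% and 3.64%, beside 1.58% and 1.98%).

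The label of a 3′ UTR did not place a peak at the end of the gene in every case. In TET1, TET2 and ALKBH1 the 3′ UTR peaks lay between 92.5% and 99.8% of the way along the gene. In TET3 they lay at 79.2% to 79.3%, and in FMR1 the 9 peaks of this label, over both lists, lay between 5.96% and 79.5%. The FMR1 label refers to the transcript that the annotation picked for each peak, and these peaks lie inside the span of the gene.

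ALYREF, the adaptor that hands mRNA to the export receptor, spans 3.753 kb on the minus strand of chromosome 17 (81887835 to 81891587, GRCh38). It had 2 exonic peaks with ddH2O and none with lactate. At the stronger one, 81889073 to 81889332, the fold over input was 4.11 and the window held 10 reads with lactate and 20 with ddH2O. The log2 ratio of the normalized densities, lactate over ddH2O, was -0.64 (counting interval -1.97 to 0.45), so the missing peak in the lactate list stood beside a difference that was not detectable at this depth. At 81890570 to 81890769 the fold was 3.14, the reads were 2 and 6 and the log2 ratio was -1.23 (-4.93 to 0.90). ALYREF is a short gene, and its 2 peaks came to 5.33 per 10 kb, the densest spacing of the genes with ddH2O.

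YBX1, a cold-shock protein that binds m5C and stabilises mRNA, had no peak in either list across its span on chromosome 1 (42682418 to 42703805). Its reads have no merged region and are not analysed here, so the missing peak gives no level. The processed pseudogene YBX1P6 on chromosome 9, looked up after its values were seen, had a peak in both lists with 29 and 43 reads and a log2 ratio of -0.05. A processed pseudogene is a near copy of the mRNA, and reads of the 2 cannot be told apart here.

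YBX3, a related cold-shock protein, had 1 intronic peak, with ddH2O, at 10704698 to 10704897 of chromosome 12. Its fold over input was 2.83 and its q-value was 0.173. The window held 3 reads with lactate and 8 with ddH2O, a log2 ratio of -1.11 (-3.90 to 0.71). No statement on direction can rest on these reads.

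FMR1, which encodes the translational regulator FMRP, had the most reads of the genes with ddH2O, 184 over windows that do not overlap, and fewer than TET3 and TET2 with lactate, 87 against 120 and 91. It had 5 peaks with lactate and 8 with ddH2O, and 5 and 6 of them had a q-value below 0.05. Its spacing of 1.28 peaks per 10 kb with lactate was the closest of the 5 genes with a lactate peak. The densest region of the 64 with ddH2O, at 147932300 to 147932931 of chromosome X, had a normalized density of 23.0 with lactate and 41.8 with ddH2O. The window held 36 and 103 reads. The log2 ratio was -0.86 (-1.47 to -0.32), and scaled by the summed reads it was -0.63 (-1.24 to -0.09). Both intervals lay below no change, and neither value passed 2-fold. The fold over input was 3.33 with lactate and 14.4 with ddH2O, a wider gap than that of the densities, and the fold also depends on the input of each condition.

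The other deep regions of FMR1 differed less. At 147936318 to 147936779 the reads were 27 and 50, with a log2 ratio of -0.35 (-1.11 to 0.33), and the adjoining region at 147937288 to 147937718, whose window overlaps, had 27 and 49 reads and -0.33. The latter was called in both lists, with a fold of 6.77 and 10.5. Among the shallow regions, 147930035 to 147930412 had 3 and 13 reads, a log2 ratio of -1.69 (-4.45 to -0.14), and the exonic 147940432 to 147940631 had 2 and 12, -2.04 (-5.71 to -0.34). The 5′ UTR region starting at 147912113, close to the start of the gene, had 0 and 4 reads, and the last region, starting at 147943002, had 0 and 1. In the other direction, the 5′ UTR region at 147925398 to 147925799 had 7 and 1 reads, a log2 ratio of 1.96 (-0.19 to 8.27). The region at 147914154 to 147914355 had 12 reads with lactate and 0 with ddH2O, which is at least 3.83-fold higher with lactate against a floor of 3 reads per library, or 7.27-fold by the summed reads. The floor is a convention for a count of 0, and the counting interval of the log2 ratio began at 1.41. FMR1 therefore held regions past 2-fold in both directions, 2 higher and 4 lower by normalized density, all outside its deepest windows. Over all merged regions, 13.9% were higher and 38.6% lower by this rule, and the counts of single genes are too small to be read against these shares. Against the floor, or by the summed reads, 2 were higher and 2 lower.

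**Figure D3:**
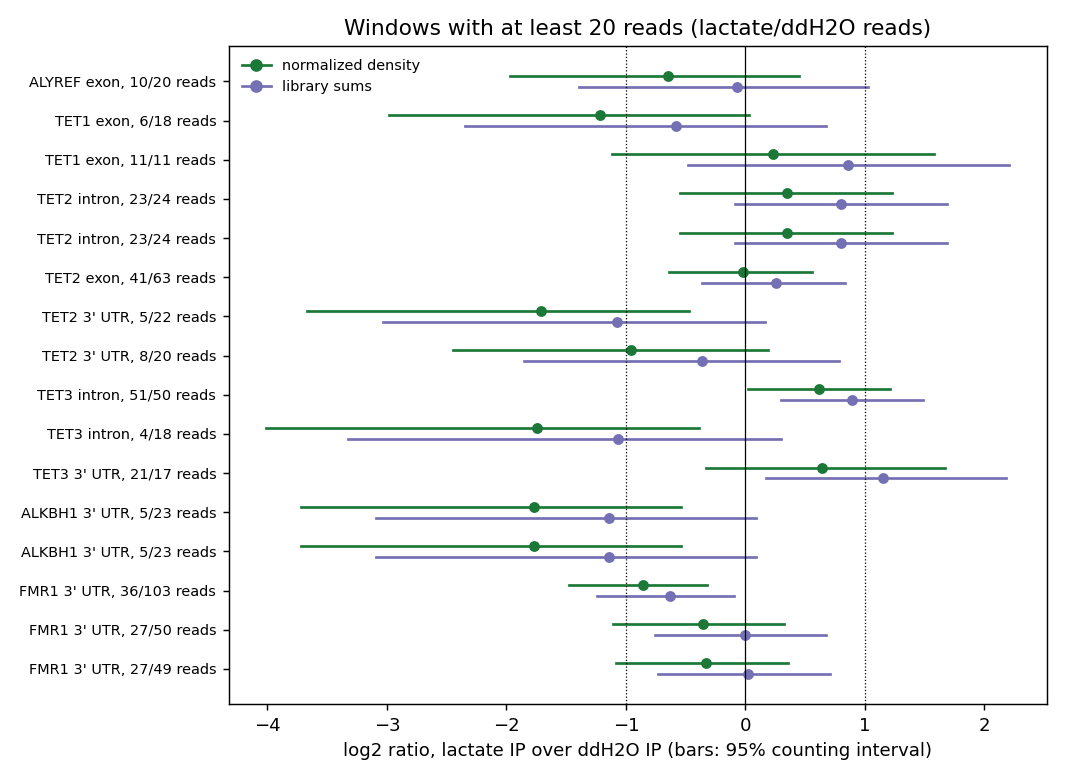
Log2 ratio of lactate over ddH2O with its 95% counting interval at the 16 regions with at least 20 reads over both IP libraries, by normalized density and by the summed window reads, with dotted lines at 2-fold. The FMR1 region with 36 and 103 reads lies below 0 and the TET3 intron with 51 and 50 reads lies above 0 by both scalings.

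TET1, the founding member of the dioxygenase family, had 4 peaks with lactate and 6 with ddH2O over 134.151 kb, none of them in an intron. The region at 68572104 to 68572586 of chromosome 10 had 6 and 18 reads, a log2 ratio of -1.22 (-2.98 to 0.03). The fold over input was 4.03 at its lactate peak, labelled 5′ UTR, and 9.90 at its ddH2O peak, labelled exon. The exonic region at 68645857 to 68646132 had 11 reads in each library, a log2 ratio of 0.23 (-1.12 to 1.58). At 68573844 to 68574117, called with lactate at a fold of 5.31, the window held 9 reads with lactate and 0 with ddH2O, at least 2.81-fold higher against the floor, or 5.46-fold by the summed reads. The counting interval of the log2 ratio began at 0.89, which is under 2-fold. A ddH2O peak was called close by, at 68574219 to 68574418 with a fold of 1.82, and its window held the same reads. The 0 ddH2O reads are therefore at odds with the ddH2O list, and the fold is uncertain. By normalized density, TET1 had 2 regions past 2-fold higher and 4 lower, 2 higher and 2 lower by the summed reads and 2 higher and 3 lower against the floor, and the 2 higher ones shared the same reads. The other 3 lower regions were shallow, with 1 and 4 reads in the exon at 68644655, 1 and 7 in the exon at 68691708 and 0 and 3 in the 3′ UTR at 68694175.

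TET2, a member of the family often mutated in blood cancers, had 5 peaks with lactate and 15 with ddH2O, of which 3 and 8 were intronic. Its densest region, the exonic 105235678 to 105236259 of chromosome 4, had normalized densities of 25.7 and 26.1 and held 41 and 63 reads. The log2 ratio was -0.02 (-0.64 to 0.56), although the fold over input was 2.78 with lactate and 7.62 with ddH2O. An intronic region at 105175163 to 105175795 had 23 and 24 reads (log2 ratio 0.35) and similar folds, 7.38 and 8.49.

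By normalized density, 10 regions of TET2 were lower past 2-fold with lactate and 1 was higher. With windows at 0 set to the floor of 3 reads, 7 were lower and 0 were higher, and by the summed reads 8 were lower and 1 was higher. In the 3′ UTR, 105272474 to 105272847 had 5 reads with lactate and 22 with ddH2O. The log2 ratio there was -1.71 (-3.67 to -0.47) by normalized density and -1.08 (-3.03 to 0.16) by the summed reads, and the fold over input was 3.24 and 8.73. Nearer the end of the gene, 105279341 to 105279674 had 8 and 20 reads (-0.96), and the regions starting at 105278476 and 105277805 had 2 and 14 reads, -2.23 (-5.90 to -0.59), and 1 and 8 reads, -2.19 (-8.49 to -0.12). The windows of these last 3 regions overlap and share reads, and by the summed reads their intervals and that of the region at 105272474 included 0. Both regions at 105193204 and 105193651, in 1 intron window, had 0 reads with lactate and 10 with ddH2O, which against the floor is at least 3.53-fold lower by normalized density and 1.83-fold lower by the summed reads. The counting interval of the log2 ratio ended at -1.25, or at -0.30 by the summed reads. The remaining lower regions of TET2 held at most 7 reads in a library, with 1 and 7 in the exon at 105190699, 1 and 4 at 105233244, 0 and 5 at 105156853, 0 and 3 at 105259070 and 0 and 1 in the 3′ UTR at 105269613. The 1 higher region, in the intron at 105186014, held 3 and 0 reads, on which no fold can be given.

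TET3, the family member with the most peaks here, had 7 with lactate and 17 with ddH2O, and 6 and 16 of them were intronic. It ranked high for its number of peaks, with fewer on 82.3% of the protein-coding genes of the lactate list and on 90.6% of those of the ddH2O list, and it is also the longest of the 8 genes, at 151.868 kb. The intronic region at 74033703 to 74035402 of chromosome 2 was the longest peak of these genes and had normalized densities of 31.9 and 20.8, the highest of the 64 regions with lactate. It held 51 and 50 reads, a log2 ratio of 0.61 (0.02 to 1.21), or 0.89 (0.30 to 1.48) by the summed reads. The fold over input was 9.12 at the stronger lactate peak in this region, 2.73 at the other lactate peak and 12.1 at the ddH2O peak. Both lactate folds were below that with ddH2O, in the opposite order to the densities.

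The 3′ UTR region of TET3 at 74103684 to 74104261 carried the highest fold over input of the genes with lactate, 10.5, against 8.49 with ddH2O. Its window held 21 and 17 reads, and the log2 ratio was 0.64 (-0.33 to 1.67), or 1.15 (0.17 to 2.18) by the summed reads. The intronic 74050391 to 74050703 stood the other way, with 4 and 18 reads and a log2 ratio of -1.74 (-4.01 to -0.39). The intronic 73991534 to 73991891 had 8 and 2 reads, 1.61 (-0.30 to 5.30). The other lower regions of TET3 were all intronic. Next to the one at 74050391, and sharing reads with it, the regions at 74049877 and 74050891 held 4 and 12 and 4 and 15 reads. The region at 74039872 held 2 and 10, that at 74010693 held 3 and 8 and that at 74052233 held 2 and 7. Both regions at 74085878 and 74086661 held 2 and 11, and that at 74077519 held 0 and 5. TET3 had 1 region past 2-fold higher and 9 lower by normalized density, 4 higher and 5 lower by the summed reads, and 1 higher and 8 lower against the floor.

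ALKBH1, the eraser that acts on tRNA, had 1 intronic peak with lactate and 6 peaks with ddH2O, and none overlapped between the lists. The highest fold over input was 3.76 with lactate and 4.85 with ddH2O. Its 3′ UTR regions on chromosome 14, 77673063 to 77673489 and 77672449 to 77672855, held the same 5 and 23 reads. The log2 ratio was -1.77 (-3.72 to -0.54), or -1.14 (-3.09 to 0.09) by the summed reads. In introns, 77678570 to 77679060 had 0 reads with lactate and 9 with ddH2O, which against the floor is at least 3.20-fold lower by normalized density and 1.65-fold lower by the summed reads. The counting interval of that log2 ratio ended at -1.07. The region at 77676351 to 77676720 had 7 and 0 reads, at least 2.15-fold higher against the floor, or 4.24-fold by the summed reads, and its interval began at 0.41. A pair of intronic regions at 77687629 and 77688269 shared 3 and 8 reads. The eraser thus held regions past 2-fold in both directions, 1 higher and 5 lower by normalized density and 1 higher and 3 lower by the summed reads. The 5 lower regions include both pairs with shared reads. By normalized density, 13.9% of all merged regions were higher and 38.6% lower.

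**Figure D4:**
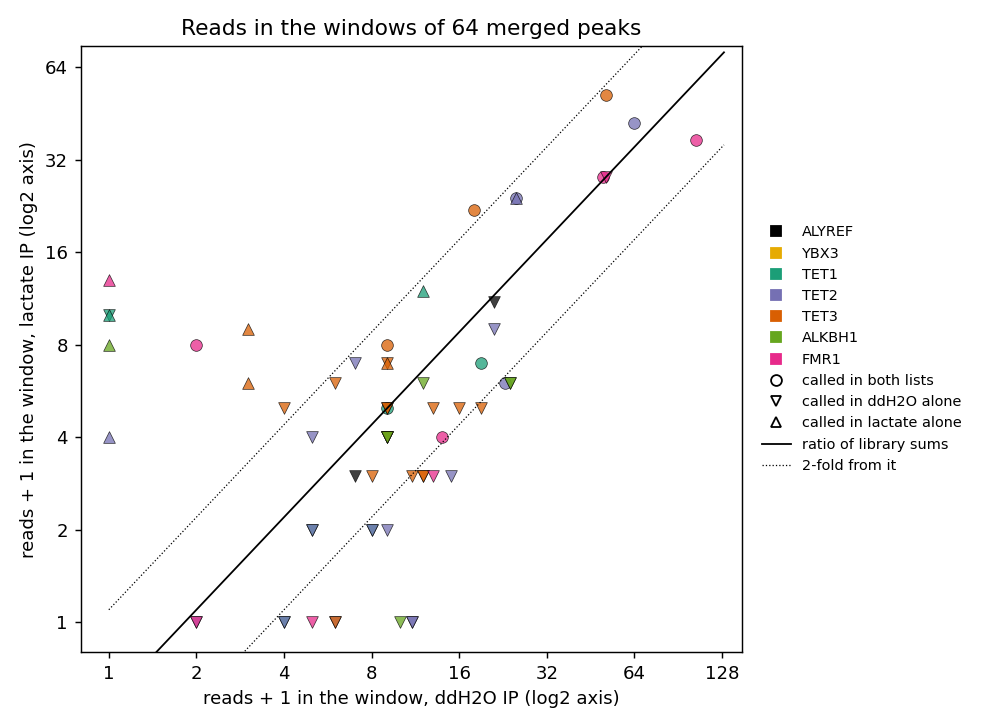
Reads per window with lactate and with ddH2O for the 64 merged regions of the 7 genes, on log2 axes with 1 read added, with the gene in colour and the list that called the region as the symbol. The solid line is the ratio of the summed reads and the dotted lines lie 2-fold from it. Most windows held few reads, with a median of 4 with lactate and 8 with ddH2O, and the windows of FMR1, TET2 and TET3 reached the highest values.

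Over all 7 genes, the lists met in 64 merged regions, of which 12 (18.75%) were called in both lists, 43 (67.2%) with ddH2O alone and 9 (14.1%) with lactate alone. The shares for all merged regions were 22.6%, 59.4% and 18.0%. Of the lactate peaks, 13 of 22 (59.1%) overlapped a ddH2O peak, and of the ddH2O peaks 12 of 55 (21.8%) overlapped a lactate peak, beside 58.5% and 29.9% for protein-coding genes. None of the 64 regions overlapped a peak annotated to another gene. The windows that give the reads are wider than the regions, and overlap with windows of other genes was not checked. The TET2 region at 105178532 and the nearby peak of the antisense gene TET2-AS1 at 105177777 had the same reads, 6 in each library.

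Regions lower with lactate outnumbered those higher. By normalized density, 34 of 64 (53.1%) were lower past 2-fold, where 38.6% of all merged regions were, and 7 of 64 (10.9%) were higher, where 13.9% were. The median log2 ratio was -1.11 for the 64 regions and -0.50 for all regions. With windows at 0 set to the floor of 3 reads, 27 of 64 were lower (24.2% of all) and 6 were higher (9.37% of all), and the medians were -0.81 and -0.24. Of the 34 lower regions, 31 were called with ddH2O alone, the longer list, and 10 had 0 reads with lactate. Of the 7 higher regions, 5 were called with lactate alone and 5 had 0 reads with ddH2O. In 5 of the regions past 2-fold neither library passed the floor of 3 reads. Moreover, 37 of the 64 windows overlapped another window of the same gene and shared reads with it. A change in the amount of a transcript and a change in its binding by NSUN2 cannot be told apart in these densities, which are not divided by the input.

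Where the reads were deeper, few regions passed 2-fold. Of the 16 regions with at least 20 reads over both IP libraries, 5 were lower (31.25%, beside 18.6% of all such regions) and 0 were higher (beside 7.65%). The 5 were 1 of TET1, 1 of TET2, 1 of TET3 and the 2 ALKBH1 regions with shared reads. By the summed reads, 4 of the 16 were lower (8.77% of all) and 1, the TET3 3′ UTR, was higher (17.0% of all). Of the 12 regions called in both lists, 3 were lower (9.30% of all) and 1 was higher (9.21% of all), and their median log2 ratio was -0.18. By the summed reads the balance of these 12 turned, with 1 lower (2.82% of all) and 2 higher (24.9% of all) and a median of 0.14.

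The balance of the calls moved with the scaling. Scaling by the summed reads moved the median of all merged regions by 0.56 (log2), to 0.07, and that of the 64 regions to -0.31. By this scaling, 20 of 64 were lower (20.5% of all) and 10 were higher (24.5% of all), so the higher share of the calls went from 17.1% to 33.3%, and from 26.5% to 54.4% over all regions. With the log2 ratios centred on the median of all regions, 22 were lower (28.4% of all) and 10 higher (22.0% of all). Requiring in addition that the 95% counting interval leave out no change kept 17 lower (15.9% of all) and 4 higher (5.61% of all) by normalized density.

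Reads were also summed per gene over windows that do not overlap, which moves with how many regions were called. Those of TET3 came to 120 with lactate and 139 with ddH2O, a log2 ratio by the summed reads of 0.65 (0.29 to 1.01). TET1 had 30 and 37 reads, 0.56 (-0.18 to 1.29). TET2, with 91 and 169 reads, was at -0.03 (-0.41 to 0.35), and FMR1, with 87 and 184, was at -0.22 (-0.60 to 0.16). ALKBH1 had 20 and 51 reads, -0.49 (-1.31 to 0.28), and ALYREF had 10 and 20, -0.14 (-1.40 to 1.03). These sums are a description by 1 scaling. In TET3, windows with fewer than 20 reads held 44 and 54 of these reads. The median over all regions of TET3 was 0.01 by the summed reads and -0.76 by normalized density.

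Most other genes of the pathway also carried peaks. Their counts are by normalized density, where 38.6% of all merged regions were lower and 13.9% higher. All 8 m5C writers had a peak, and 1 of their 36 merged regions was higher and 17 (47.2%) were lower, with a median log2 ratio of -0.69. Of the export partners of ALYREF, 12 of 12 had a peak, with 5 regions higher and 24 (27.0%) lower of 89 (median -0.44), among them POLDIP3 with 6 and 29 reads (-1.82) and THOC7 with 31 and 102 (-1.07). The relatives YBX2, FXR1 and FXR2 had 1 region higher and 4 lower of 11. Other reported m5C binders had 3 higher and 12 lower of 40, with RAD52 at 22 and 4 reads (2.41), YTHDF2 at 26 and 109 (-1.43) and no peak on SRSF2. The ALKBH1 relatives had 5 higher and 10 lower of 33, including ALKBH2 at 4 and 26 reads (-2.21) and ALKBH3 at 14 and 6 (1.29), and the TET partners had 2 higher and 11 lower of 26, including IDH1 at 5 and 17 (-1.39). By the summed reads, by which 24.5% of all regions were higher and 20.5% lower, 6 regions were higher and 8 lower for the writers, and higher regions outnumbered lower ones for the export partners (17 and 9), the other binders (12 and 6), the ALKBH1 relatives (7 and 4) and the TET partners (4 and 3), with 1 and 2 for the reader relatives. The medians by this scaling ran from -0.14 for the writers and the TET partners to 0.43 for the other m5C binders, and that of the export partners was 0.10.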

How the data were processed

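RIP-seq of NSUN2 was analysed from 4 libraries, 1 IP and 1 input for each condition, grouped by the sample labels. Per the submitters' processing notes, fastp 0.20.1, HISAT2 2.1.0, MACS2 2.2.7.1, bedtools 2.29.2, HOMER 4.11.1 and DiffBind were among the tools and GRCh38 was the build. The notes give no role or order for them. The deposited peak lists hold a fold, which is a ratio of IP over input, and a p-value and q-value for each peak, from the authors' peak caller, run per library. The deposited merged table holds the authors' normalized signal (read density) for each IP library, and its columns of the authors' own comparison (M value, A value, P value) were not used. Coordinates are counted from 1.

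The densities were turned back into reads, with a tolerance of 0.1 read, from a line of slope 0.169 and intercept -0.20 in the mean log2 density. On simulated data with 3 other lines, 100% of 116484 windows gave back their reads. A merged region took the gene of each called peak it overlapped by at least 1 base. Intervals are exact (Clopper-Pearson) at 95% and cover counting error only, since PCR copies are not independent molecules. The depth of the input libraries is unknown.

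With 1 library per condition no test was made, and called means past 2-fold. The genes and the lists were chosen with earlier results of these data known. For each of the 8 genes, the densest region and the highest fold in each list and every region past 2-fold were described. In the other lists, at most 4 genes each with a region past 2-fold and at least 20 reads were open to naming, by the size of the log2 ratio. The alternatives were a fold of at least 4, a q-value below 0.05, an overlap of 50%, another scaling, 20 reads, a 1.5-fold call and the counting interval. The scripts ran in Python 3.11.15 (pandas 2.3.3, numpy 2.4.6, scipy 1.17.1) and figures were drawn with matplotlib 3.10.9.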

Additional observations from a re-analysis of the deposited data

How the results depend on the processing

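Of 50 counts and shares recomputed under an alternative, 31 were classed as unchanged and 19 as moved. The shares classed as unchanged stayed within their counting intervals, which are wide. For example, the lactate 3′ UTR share of 31.8% was classed as unchanged at 17.6% without FMR1. So was the count of higher regions, which went from 7 to 10 by the summed reads. The log2 ratio at the densest region of a gene stayed within its counting interval in 12 of 14 cases, and the exceptions were the medians over all regions of TET2, -1.41 against -0.02, and of TET3, -0.76 against 0.61, where the sign changed. The rank of a gene by its number of peaks differed from its rank per kb in 9 of 12 cases, and TET3 went from rank 1 to 5 with ddH2O. Stricter peaks left fewer: 11 of the 22 lactate peaks and 18 of the 55 ddH2O peaks at a fold of at least 4, and 13 and 28 at a q-value below 0.05. At a fold of at least 4, the ddH2O intron share went from 52.7% to 27.8% and the 3′ UTR share from 27.3% to 44.4%. The 7 higher regions became 0 with at least 20 reads, 4 with the counting interval and 1 among regions called in both lists. The 34 lower regions became 5, 17 and 3 by the same rules, 20 by the summed reads and 22 when centred on the median. When windows overlapping a denser one were left out, 44 of the 64 windows remained and 19 of these were lower. The share of all regions by that last rule is not given here. By the summed reads, 1 was higher and 4 lower with at least 20 reads, and 2 were higher and 1 lower among regions called in both lists. In the latter, more regions were lower by normalized density and more were higher by the summed reads. The limits to regions called in both lists, the centring, the removal of overlapping windows, the floor for windows at 0, the shares without FMR1 and the pairs of a limit with the summed reads were added after seeing the data. No paired analysis was possible because there was 1 IP library for each treatment, and leaving out a replicate was impossible for the same reason. The median window held 4 reads with lactate and 8 with ddH2O, and by normalized density the counting interval left out no change at 17 of the 34 lower and 4 of the 7 higher regions.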

Other observations

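A TET1 region called with ddH2O alone, at 68574219 to 68574418 of chromosome 10 with a fold of 1.82 and a q-value of 1, held 0 reads with ddH2O and 9 with lactate in its window. It was 1 of the 43 regions of these genes called with ddH2O alone. Over all regions called with ddH2O alone, 2124 of 69138 (3.07%) had 0 ddH2O reads, and over those called with lactate alone, 564 of 20965 (2.69%) had 0 lactate reads. A TET2 3′ UTR peak of the ddH2O list, at 105269613 to 105269885 of chromosome 4, had a fold of 5.46 and a q-value of 1.87e-05 and 1 ddH2O read in its window. The cause was not tested.

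Peaks annotated to other genes lay within the spans of 3 of the genes. In TET3, the processed pseudogene FNBP1P1 had a ddH2O peak with a fold of 10.3 and a lactate peak with a fold of 4.42, in a window of 13 and 19 reads (log2 ratio -0.20). In ALKBH1, the ribosomal protein pseudogene RPL21P10 had a peak in both lists with 6 reads in each library. In TET2, the antisense gene TET2-AS1 had a lactate peak with 6 reads in each library, and reads of the 2 strands cannot be told apart here.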
